A study of Mus musculus with 4 samples.

Results

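The genes that copy DNA in S phase were followed in CD51+;CD200+ skeletal stem/progenitor cells of 3 cranial sutures and the tibial growth plate. The set holds 40 genes of the 23946 gene symbols listed in each library, chosen by name for their role at the replication fork. They fall into 7 role groups: licensing of origins, activation of the helicase, the sliding clamp and its loader, the DNA polymerases, the single-strand binding protein RPA, processing of Okazaki fragments, and supply of nucleotides. Bulk RNA-seq was performed on cells of wild-type CD-1 mice at postnatal day 3, with 1 library for each suture and 1 for the growth plate (GP), which served as control. The sutures were the posterior frontal (PF), which later fuses in normal development, and the coronal (COR) and sagittal (SAG), which stay patent. Cells of pooled animals were sorted by FACS as CD51+ and CD200+ and as negative for 6C3, CD105, CD45, Thy1.1, Thy1.2, Tie2, and Ter119. CD51 is an integrin subunit, CD200 is a membrane glycoprotein, and a suture sample was a complex of bone fronts, mesenchyme, dura mater, and periosteum before the sort. No tissue had a replicate library, so every difference below compares these libraries and carries no p-value.

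DNA replication runs in ordered steps. In G1 phase, the origin recognition complex with CDC6 and CDT1 loads the ring-shaped MCM2-7 helicase onto origins, and geminin holds CDT1 in check once S phase has begun. CDC45 and the GINS complex then join MCM2-7 to form the active helicase, RPA coats the single strands, polymerase alpha-primase lays primers, replication factor C (RFC) loads the PCNA clamp, and polymerases delta and epsilon extend the strands. Many of these genes are known targets of the E2F transcription factors, which are active at the entry to S phase, and growing skeletal tissue of the newborn mouse holds many dividing progenitors.

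Promoter sequence was read for 32 of the 40 genes from RefSeq on build GRCm38.p6, in windows of 300 bases with 250 before and 50 after the gene start. An E2F-type motif (TTTGGCGC, TTTCCCGC, TTTGGCGG, TTTCCCGG, TTTGGGCG, TTTCGCGC, or TTTGCCGC, on either strand, overlaps counted) was found in 15 of these 32 genes, or 46.9%, and in 5.10% of the 27025 genes in the promoter table. The 15 genes were *Cdc6*, *Cdt1*, *Gins3*, *Lig1*, *Mcm3*, *Mcm5*, *Mcm6*, *Mcm7*, *Pola1*, *Pola2*, *Pold1*, *Pold3*, *Pole2*, *Rfc3*, and *Rpa1*. A single motif was present in 9 of them, 2 motifs in 5, and 3 motifs in *Mcm6*. Promoters of 6 genes are shown with the motifs in capitals, because they hold the same motif family on genes that stood at opposite ends of the order of libraries: *Mcm3*, *Pold3*, *Rfc3*, and *Cdc6* were lowest in PF, and *Mcm5* and *Cdt1* were highest in PF. They lie at chr1:20820263-20820562 (minus strand, *Mcm3*), chr7:100121453-100121752 (minus, *Pold3*), chr5:151651159-151651458 (minus, *Rfc3*), chr11:98907901-98908200 (plus, *Cdc6*), chr8:75109259-75109558 (plus, *Mcm5*), and chr8:122567765-122568064 (plus, *Cdt1*).
Mcm3: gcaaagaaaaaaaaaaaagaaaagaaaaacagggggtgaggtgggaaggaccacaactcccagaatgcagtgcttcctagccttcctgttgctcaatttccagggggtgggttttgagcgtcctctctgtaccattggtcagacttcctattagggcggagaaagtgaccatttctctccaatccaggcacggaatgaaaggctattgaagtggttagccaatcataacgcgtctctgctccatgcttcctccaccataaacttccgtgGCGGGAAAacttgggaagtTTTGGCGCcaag
Pold3: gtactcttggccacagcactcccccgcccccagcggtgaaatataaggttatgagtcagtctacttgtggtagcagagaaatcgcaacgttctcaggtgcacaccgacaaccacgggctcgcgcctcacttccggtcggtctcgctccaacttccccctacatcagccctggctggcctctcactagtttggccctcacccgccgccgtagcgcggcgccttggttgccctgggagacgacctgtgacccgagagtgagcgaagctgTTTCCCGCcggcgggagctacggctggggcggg
Rfc3: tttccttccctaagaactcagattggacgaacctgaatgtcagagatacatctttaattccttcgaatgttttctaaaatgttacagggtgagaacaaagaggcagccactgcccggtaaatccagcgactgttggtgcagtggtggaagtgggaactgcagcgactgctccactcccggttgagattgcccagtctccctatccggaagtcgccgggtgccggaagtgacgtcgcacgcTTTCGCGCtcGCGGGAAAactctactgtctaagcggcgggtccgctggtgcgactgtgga
Cdc6: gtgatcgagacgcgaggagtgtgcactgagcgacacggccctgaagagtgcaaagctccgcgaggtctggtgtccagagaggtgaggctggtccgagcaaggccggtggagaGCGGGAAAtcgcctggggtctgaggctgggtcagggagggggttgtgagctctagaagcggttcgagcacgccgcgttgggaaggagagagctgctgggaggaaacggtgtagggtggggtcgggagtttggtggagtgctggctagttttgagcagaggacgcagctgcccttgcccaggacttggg
Mcm5: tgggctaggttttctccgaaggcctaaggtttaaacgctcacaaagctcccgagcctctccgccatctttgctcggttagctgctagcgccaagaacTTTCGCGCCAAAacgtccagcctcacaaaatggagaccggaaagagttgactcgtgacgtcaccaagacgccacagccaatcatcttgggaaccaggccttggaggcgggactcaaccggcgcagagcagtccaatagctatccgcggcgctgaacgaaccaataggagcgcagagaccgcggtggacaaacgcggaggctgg
Cdt1: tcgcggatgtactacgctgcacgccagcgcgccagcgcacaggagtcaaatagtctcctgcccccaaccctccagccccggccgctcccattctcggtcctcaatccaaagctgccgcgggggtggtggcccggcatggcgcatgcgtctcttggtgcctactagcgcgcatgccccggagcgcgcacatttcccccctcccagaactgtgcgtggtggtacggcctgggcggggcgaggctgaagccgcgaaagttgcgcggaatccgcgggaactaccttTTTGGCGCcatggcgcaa
In *Mcm5*, the capitals are 2 overlapping motifs on opposite strands. Among all 22 motifs in the promoters of the set, 11 started at or after the gene start, as both did in *Mcm3* and the single ones did in *Pold3* and *Cdt1*. The motif was held by 6 of 17 genes that were lower in PF than in both other sutures and by 7 of 9 genes that were higher in PF than in both. These groups took differences of any size in FPKM as deposited, so they depend on the scaling. *Gmnn* and *Gins1*, both lower in PF, had no promoter sequence here, and a link of the motif with direction was not tested. CCAAT, the motif of the factor NF-Y, was found on either strand in 62.5% of the set and in 41.1% of all genes. The CHR motif of mitotic genes (TTTGAA, either strand) was found in 15.6% of the set against 20.2% of all genes, and in 73.9% of 23 mitosis genes listed for comparison. A match describes the letters of the window and is not evidence of binding in these cells.

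Values are FPKM, which are scaled per length of transcript and for the size of the library, so levels of different genes can be set side by side. All 40 genes had an FPKM of 1 or more in GP, 39 did in SAG and in COR, and 37 did in PF. The summed level of the set was 644 FPKM in PF, 648 in COR, 804 in SAG, and 859 in GP. PF and COR were thus close to each other and below SAG and GP in FPKM as deposited. This order turned relative to *Gapdh*, with ratios of the summed level to *Gapdh* of 2.29 in PF, 2.21 in GP, 1.98 in SAG, and 1.93 in COR. *Gapdh* itself was lowest in PF, and relative to it the median log2 difference of all genes was 0.51 against SAG and 0.46 against GP. The median of the set minus that of all genes was -0.47 for PF against SAG both as deposited and relative to *Gapdh*. Of the 40 genes, 21 were lowest in PF (35.8% of all genes ranked), 16 were lowest in COR (19.6%), 3 were lowest in SAG (27.4%), and 0 were lowest in GP (17.3%). The highest value was in GP for 17 genes (16.4% of all genes), in SAG for 12 (28.4%), in PF for 10 (35.2%), and in COR for 1 gene, *Mcm3* (19.9%). GP therefore held the highest value more often, and COR less often, than across all genes in FPKM as deposited. Relative to *Gapdh*, 14 of 39 genes were lowest in PF, 11 were lowest in COR, and 11 were highest in GP. All genes were not ranked on that scale, so the shares above do not apply to these counts.

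**Figure D1:**
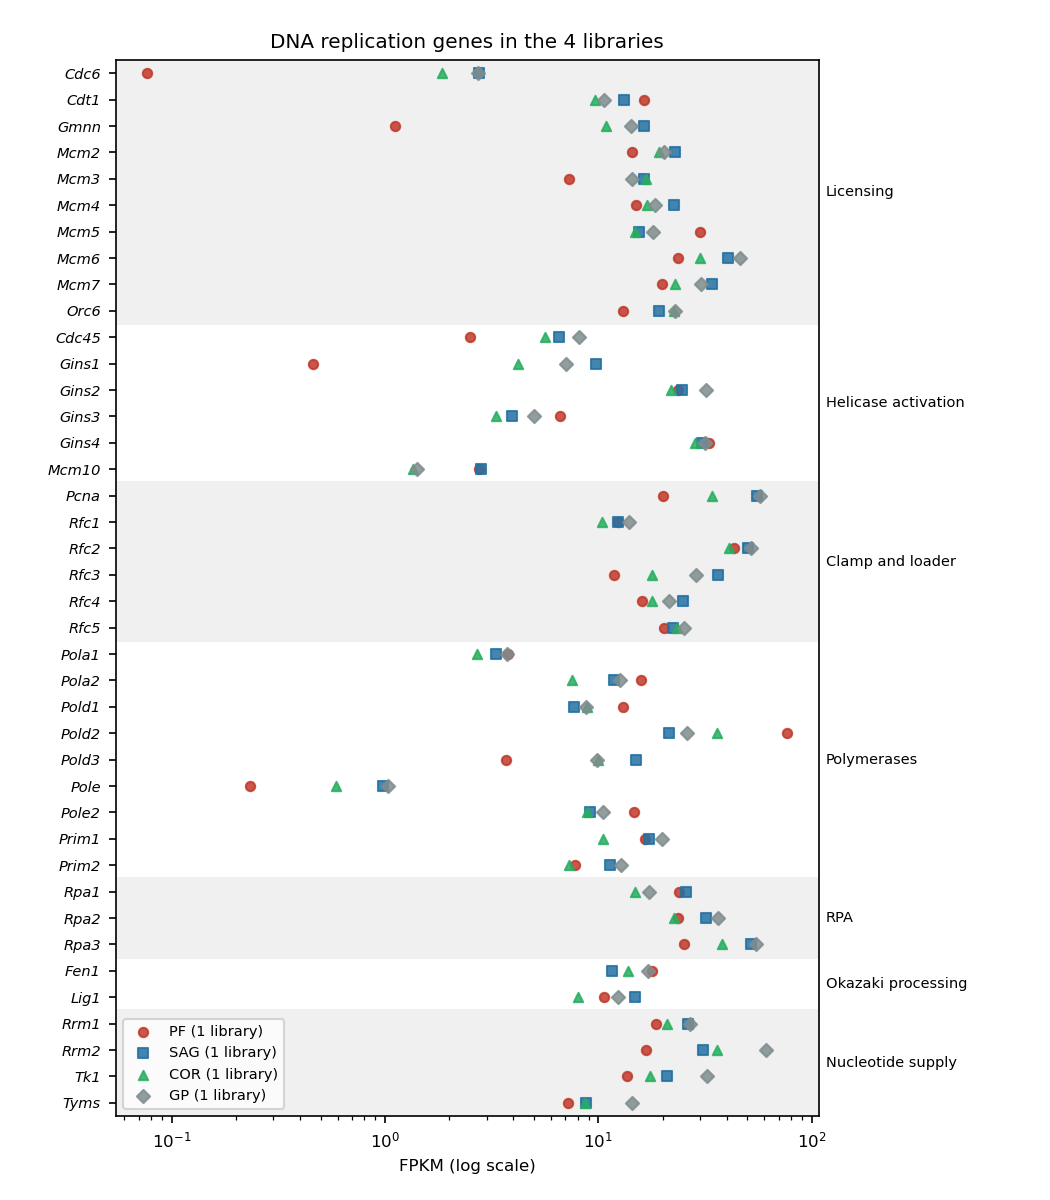
FPKM of the 40 DNA replication genes on a log axis, grouped by role, with 1 marker for each of the PF, SAG, COR, and GP libraries. *Cdc6*, *Gins1*, and *Gmnn* in PF stand far to the left of the same genes in the other libraries, and *Pold2* in PF, at 76.6 FPKM, stands to the right.

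The libraries were of unequal depth. The smallest step between low values put the PF library at 44.2% of the fragments of SAG, COR at 88.6%, and GP at 85.1%, if FPKM was scaled in proportion to fragments. By the same step, *Cdc6* rested on about 6.3 fragments in PF, *Gins1* on 8.5, *Gmnn* on 21.3, and *Pole* on 28.3, and every other gene of the set rested on more than 50 in each library. Of 7203 genes with an FPKM of 5 or more in the other 3 libraries, 65 were below 1 in PF, and for SAG, COR, and GP the like numbers were 5, 4, and 9. Summed leukocyte markers (8 genes) were at 16.8 FPKM in GP, 10.8 in SAG, 8.24 in COR, and 42.4 in PF, with 3 of 8 genes at 1 FPKM or more in PF and 2 of 8 in each other library. *Tyrobp* was listed at 0 in all 4. Most of the leukocyte sum in PF was *Lyz2*, at 30.2 FPKM. *Ptprc*, *Cd74*, *Cd52*, and *Coro1a* were also highest in PF, whereas *Csf1r* and *Laptm5* were lowest there. Summed choroid plexus markers (8 genes) were at 5354 FPKM in SAG against 504 in PF, 201 in COR, and 51.9 in GP, and chondrocyte markers (8 genes) at 2352 in SAG, 1522 in GP, 345 in PF, and 169 in COR. Most of the choroid plexus sum in SAG was *Ttr*, at 5103 FPKM. The other choroid plexus markers were also highest in SAG, except *Aqp1*, which was lowest there, at 11.9 FPKM. Of the chondrocyte markers, *Acan*, *Matn3*, *Hapln1*, and *Chad* were highest in GP. PF also held the highest sums of erythroid markers (8 genes), at 19.1 FPKM against 2.37 to 2.90 elsewhere, and of endothelial markers (6 genes), at 33.8 FPKM against 3.78 to 17.6. Of the erythroid markers, *Klf1* was lowest in PF, at 0 FPKM, and *Hba-a2* and *Alas2* were highest in COR. Most of the endothelial sum in PF was *Esam*, at 29.5 FPKM. *Pecam1* and *Cdh5* were also highest in PF, whereas *Tek*, *Kdr*, and *Emcn* were lower in PF than in SAG. Neural markers (11 genes) summed to 59.9 FPKM in SAG against 5.43 to 12.0 elsewhere, and osteoblast markers (6 genes) to 11192 in COR, 7916 in GP, 2333 in PF, and 825 in SAG. Most of the neural sum in SAG was *Pax6*, at 41.6 FPKM. *Snap25*, *Map2*, *Syt1*, and *Sox2* were also highest in SAG, whereas the other neural markers were highest in another library, as *Tubb3* was in COR, at 10.2 FPKM. The part of depth and of these other cell types in the differences below was not tested. Fewer cycling cells and less replication RNA per cell cannot be told apart in bulk samples. Of 9 skeletal markers, all were at 1 FPKM or more in PF, SAG, and GP and 8 were in COR, where *Col1a1* is listed at 0. *Prrx1*, a gene of skeletal progenitors, was at 31.0 to 57.7 FPKM, but other skeletal markers differed widely, with the osteoblast factor *Sp7* from 7.93 FPKM in SAG to 199.9 in COR and the cartilage collagen *Col2a1* from 31.4 FPKM in PF to 1749.8 in SAG. *Itgav*, the gene of CD51, was at 12.7 FPKM in PF against 6.20 in SAG, 15.0 in COR, and 13.5 in GP. *Cd200*, the other gene of the sort, was at 23.5 FPKM in PF against 48.1 in SAG, 62.6 in COR, and 57.1 in GP, which is at least 2-fold lower in PF in FPKM as deposited.

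Differences between libraries were taken on the log2(FPKM + 1) scale, where 1 is a 2-fold difference of the shifted values, for genes that reached an FPKM of 1 in either library. *Pole* did not reach that level in any suture and was compared only with GP. Between PF-CD51+;CD200+ and SAG-CD51+;CD200+ cells, the median difference over 39 genes was -0.45, against 0.025 over all 13490 genes tested, and relative to *Gapdh* these were 0.044 and 0.51. In PF, 29 of 39 genes were lower by any amount (49.0% of all genes). At least 2-fold lower were 9 genes (18.5% of all genes) and 2-fold higher was 1, *Pold2* (16.2%). Relative to *Gapdh*, 5 were 2-fold lower and 6 higher, but the shares of all genes at that level were not counted. By any amount, 18 of 39 were lower relative to *Gapdh*, against 31.6% of all genes. In FPKM as deposited, the 3-fold level was passed by 4 genes in the lower direction (9.04% of all genes) and by *Pold2* in the higher (6.64%). The shift of the set was therefore spread over many small differences, and its share of 2-fold lower genes, 9 of 39, was not far from that of all genes.

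Against COR, the set was split. The median difference was -0.15 over 39 genes (0.049 over all genes, and 0.089 and 0.29 relative to *Gapdh*). In PF, 20 were lower and 19 higher, a share close to that of all genes, of which 47.7% were lower. At least 2-fold lower in PF were *Mcm3*, *Cdc6*, *Gmnn*, *Gins1*, *Pold3*, and *Rrm2* (6 of 39, 12.8% of all genes), of which *Gmnn* and *Gins1* were also 3-fold lower (4.87%), and *Pold2* was 2-fold higher (16.6%). This median changed sign without the 3 of these 39 genes that rested on few fragments in PF, when it was 0.068 over 36 genes.

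Against GP, the median difference was -0.45 over 40 genes (0.027 over all genes, and 0.032 and 0.46 relative to *Gapdh*). In PF, 10 genes were at least 2-fold lower (14.4% of all genes), 4 were 3-fold lower (6.24%), and *Pold2* was 2-fold higher (14.7%). Between *Gmnn*, *Cdc6*, *Gins1*, *Pold3*, and *Pold2*, the first 4 were 2-fold lower and the last 2-fold higher in PF than in each of the other libraries. The 3 comparisons share the PF library, so they are not independent of each other.

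**Figure D2:**
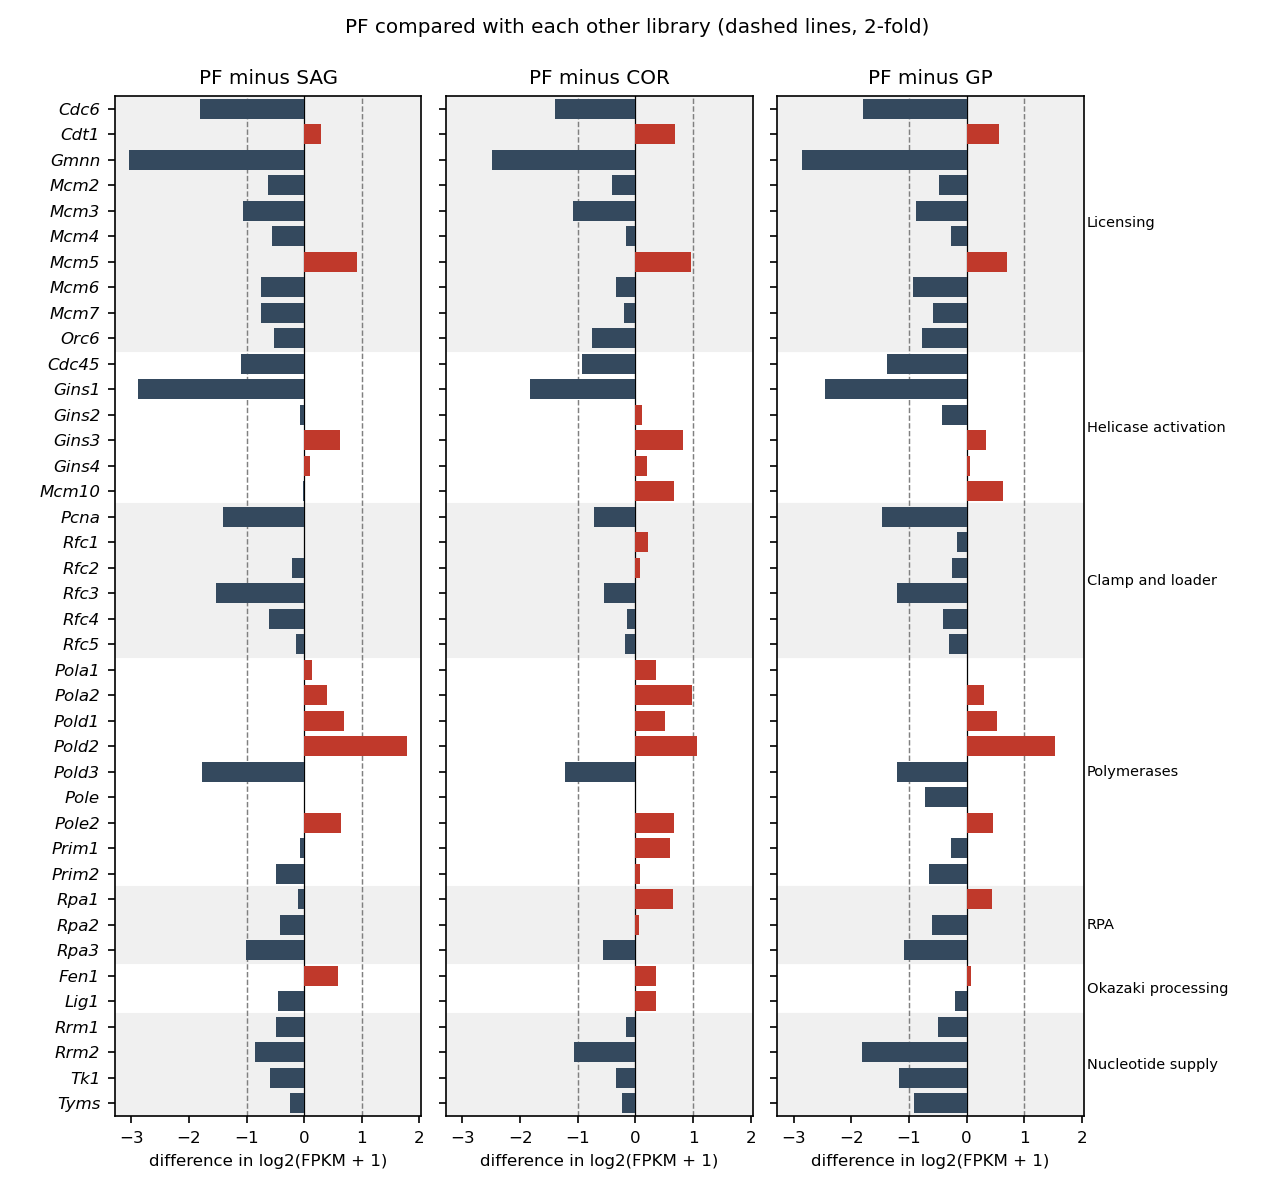
Difference of PF from SAG, COR, and GP for each gene on the log2(FPKM + 1) scale, with bars to the left where PF was lower and dashed lines at 2-fold. *Pole* has a bar only against GP, *Pold2* passes the line to the right in all 3 panels, and most of the other long bars point to the left.

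Without PF, differences were smaller. COR was lower than SAG in 32 of 39 genes (51.4% of all genes), with a median of -0.32. A 2-fold difference was passed only by *Gins1*, which was lower in COR (12.5% of all genes lower, 7.6% higher). Relative to *Gapdh*, COR was lower than SAG in 22 of 39 genes (35.6% of all genes), with a median of -0.055. In FPKM as deposited, COR was lower than GP in 36 of 40 genes (48.0% of all genes), with a median of -0.36. There, 0 genes passed 2-fold in either direction (6.99% of all genes lower, 2.97% higher). Relative to *Gapdh*, COR was lower than GP in 28 of 39 genes (29.0% of all genes), with a median of -0.17. As deposited, SAG and GP were closest, with a median of -0.084, and again 0 of 40 genes were 2-fold apart (8.22% of all genes lower in SAG, 9.81% higher).

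Among the licensing genes, *Gmnn* and *Cdc6* stood apart in PF. *Gmnn* (ENSMUSG00000006715.4, mm9 chr13:24843714-24853792, minus strand) encodes geminin. It was listed at 1.11 FPKM in PF, 10.9 in COR, 16.4 in SAG, and 14.3 in GP, or -3.04 in PF against SAG, -2.49 against COR, and -2.85 against GP on the log2(FPKM + 1) scale. PF stood alone at the low end, on about 21.3 fragments, with the other 3 libraries close together. *Cdt1*, the loading factor that geminin binds, was highest in PF, at 16.3 FPKM against 13.2 in SAG, 9.69 in COR, and 10.7 in GP. For *Gmnn* over *Cdt1*, the FPKM ratio was therefore 0.0681 in PF, against 1.24 in SAG, 1.12 in COR, and 1.34 in GP. *Cdc6* (ENSMUSG00000017499.9, chr11:98769115-98785254, plus strand), the partner of CDT1 in loading and the lowest gene of the group by its mean, was listed at 2.72 FPKM in GP, 2.75 in SAG, 1.84 in COR, and 0.0771 in PF. The loaders of the helicase thus lay at opposite ends of the order of libraries in PF, where *Cdc6* rested on about 6.3 fragments. *Orc6*, a subunit of the origin recognition complex, was at 13.0 FPKM in PF against 19.3 in SAG, 22.6 in COR, and 23.0 in GP.

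Subunits of the MCM2-7 ring (6 genes) did not share 1 order of libraries. *Mcm3* (ENSMUSG00000041859.9, chr1:20793055-20810359, minus strand) was at 7.31 FPKM in PF, 16.7 in COR, 16.4 in SAG, and 14.3 in GP, with differences in PF of -1.06 against SAG and -1.09 against COR. *Mcm5* (ENSMUSG00000005410.4, chr8:77633427-77652338, plus strand) was at 18.1 FPKM in GP, 15.5 in SAG, 14.9 in COR, and 30.1 in PF, which is 0.91 higher in PF than in SAG and 0.97 higher than in COR. Both genes encode subunits of the same ring, and PF was the lowest library for one and the highest for the other. *Mcm2* was at 14.4 FPKM in PF against 22.8 in SAG, 19.3 in COR, and 20.4 in GP. *Mcm4* was at 15.1 FPKM in PF, 17.0 in COR, 22.7 in SAG, and 18.5 in GP. *Mcm6*, the highest licensing gene by its mean, was at 46.1 FPKM in GP, 40.4 in SAG, 30.1 in COR, and 23.6 in PF. For *Mcm2*, *Mcm4*, and *Mcm6*, as for *Mcm3*, PF was lowest, although GP was lowest for *Mcm4* relative to *Gapdh*. *Mcm7* followed with 19.9 FPKM in PF against 34.3 in SAG, 22.9 in COR, and 30.2 in GP, but its exons overlap *Ap4m1*, *Cops6*, *Mir25*, and *Mir93*, whose reads may not have been told apart. The highest subunit of the ring was 4.12 times the lowest in PF, 2.61 times in SAG, 2.02 times in COR, and 3.22 times in GP. *Mcm5* was the highest of the 6 in PF and the lowest in SAG and COR.

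Among the genes that activate the helicase, *Gins1* stood apart. *Gins1* (ENSMUSG00000027454.4, chr2:150731136-150757016, plus strand) was listed at 0.461 FPKM in PF, 4.21 in COR, 9.72 in SAG, and 7.02 in GP. It was also lower in COR than in SAG, by a difference of -1.04. The other subunits of the 4-part GINS complex did not share this order. *Gins2* was at 23.6 FPKM in PF and from 21.9 to 31.9 in the other libraries, and its exons overlap *Gse1*. *Gins4*, the highest gene of the group by its mean, was at 31.5 FPKM in GP, 30.5 in SAG, 28.4 in COR, and 33.0 in PF. *Gins3* was highest in PF, at 6.61 FPKM against 3.32 to 5.01 elsewhere. The subunits of this complex act as 1 unit at the fork. *Gins4* exceeded *Gins1* by 71.5 times in PF, where *Gins1* rested on about 8.5 fragments. The spread of the complex was 7.75 times in SAG, 8.56 times in COR, and 6.37 times in GP. *Cdc45* (ENSMUSG00000000028.8, chr16:18780540-18812080, minus strand) differed by -1.10 in PF against SAG, -0.93 against COR, and -1.39 against GP, from levels of 2.504 FPKM in PF against 6.51 in SAG, 5.65 in COR, and 8.16 in GP. Its exons overlap *Ufd1l* on the other strand. *Mcm10*, which helps the helicase to start and was the lowest gene of the group by its mean, was at 2.75 FPKM in PF, 1.35 in COR, 2.81 in SAG, and 1.41 in GP.

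**Figure D3:**
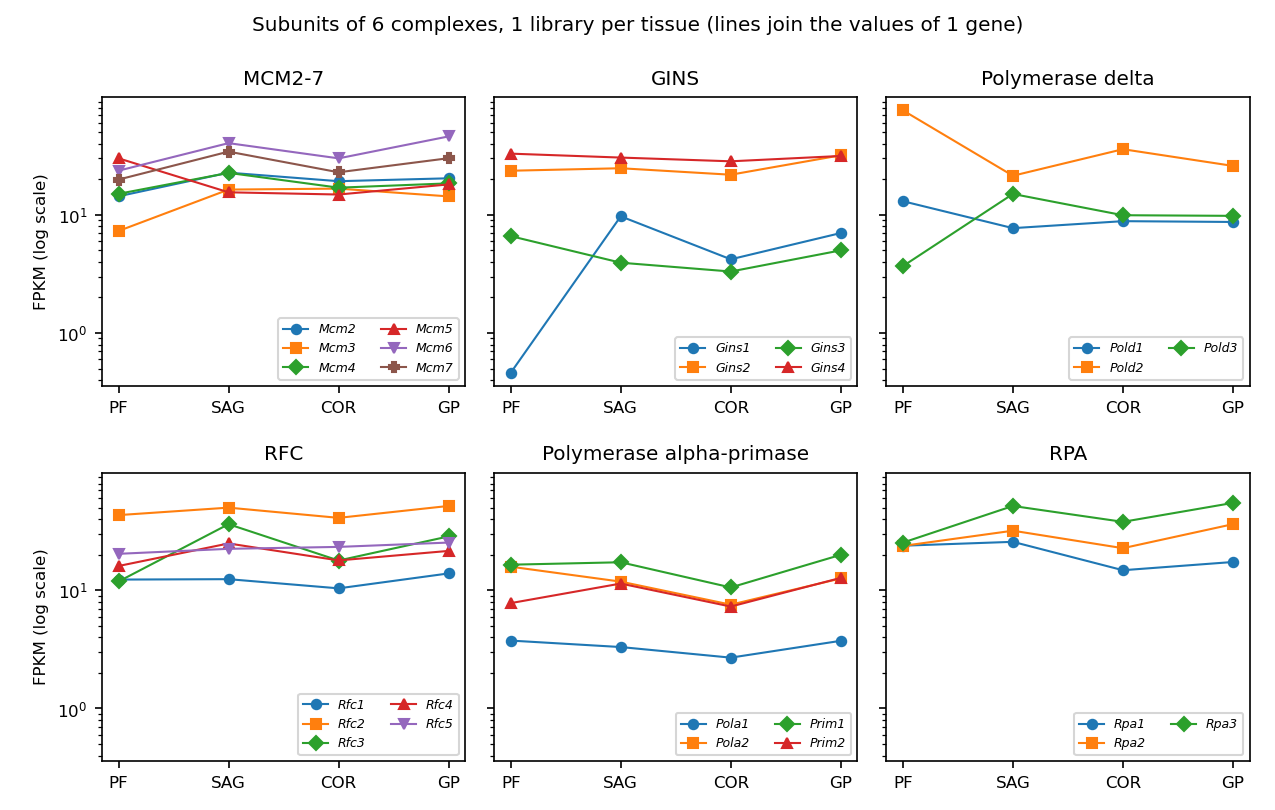
FPKM on a log axis for the subunits of 6 replication complexes in PF, SAG, COR, and GP, with 1 line per gene and 1 library per tissue. Lines cross between PF and SAG for *Mcm5*, *Gins1*, *Pold3*, and *Rfc3*, while the lines of polymerase alpha-primase keep nearly the same order in all 4 libraries.

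The clamp and 1 subunit of its loader were at least 2-fold lower in PF than in SAG and GP. *Pcna* (ENSMUSG00000027342.7, chr2:132074898-132079050, minus strand) was at 57.4 FPKM in GP, 55.2 in SAG, 34.0 in COR, and 20.2 in PF. The difference in PF was -1.41 against SAG, -0.72 against COR, and -1.46 against GP, and COR lay between PF and the other libraries. The annotation names the copies *Pcna-ps1* and *Pcna-ps2*, so its reads may have been split. *Rfc3* (ENSMUSG00000033970.9, chr5:152445331-152453817, minus strand), a small RFC subunit, followed the same order at the low end, with 11.9 FPKM in PF, 17.9 in COR, 28.6 in GP, and 36.2 in SAG. *Rfc2*, the highest gene of the group by its mean, was at 43.3 FPKM in PF against 50.02 in SAG, 41.0 in COR, and 51.7 in GP. *Rfc1*, the large subunit and the lowest gene of the group by its mean, was at 12.3 FPKM in PF, 10.4 in COR, 12.4 in SAG, and 13.9 in GP. These subunits were nearly level across the libraries, and so was *Rfc5*, at 20.3 to 25.3 FPKM. *Rfc4* was at 16.0 FPKM in PF and at 17.9 to 24.9 in the others. Exons of *Rfc4* and *Rfc5* overlap *Eif4a2* and *Wsb2*.

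The polymerases were the group whose summed level was highest in PF, at 152 FPKM against 98.1 in SAG, 92.3 in COR, and 105 in GP. Most of this came from 1 gene. *Pold2* (ENSMUSG00000020471.5, chr11:5772183-5778295, minus strand), an accessory subunit of polymerase delta, was at 26.0 FPKM in GP, 21.4 in SAG, 35.9 in COR, and 76.6 in PF. Its difference in PF was 1.79 against SAG, 1.07 against COR, and 1.53 against GP. *Pold3* (ENSMUSG00000030726.9, chr7:107230621-107270075, minus strand), another accessory subunit, went the other way, at 3.68 FPKM in PF against 15.0 in SAG, 9.93 in COR, and 9.81 in GP. For *Pold3* over *Pold2*, the FPKM ratio was 0.0480 in PF, 0.276 in COR, 0.702 in SAG, and 0.378 in GP. *Pold1*, the catalytic subunit, was at 13.1 FPKM in PF and from 7.72 to 8.85 in the other libraries. Of the 3 polymerase delta genes, 2 were therefore highest and 1 lowest in PF. *Pole*, the catalytic subunit of polymerase epsilon and the lowest gene of the set by its mean, was at 1.03 FPKM in GP, 0.980 in SAG, 0.590 in COR, and 0.232 in PF. *Pole2*, its second subunit, was highest in PF at 14.7 FPKM, with 8.88 to 10.5 elsewhere.

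Polymerase alpha-primase was even by comparison. *Pola1*, the catalytic subunit, ranged from 2.69 FPKM in COR to 3.75 in PF. *Pola2* was at 15.8 FPKM in PF against 11.8 in SAG, 7.56 in COR, and 12.6 in GP, which is 0.98 higher in PF than in COR. *Prim1*, the catalytic primase, was at 16.5 FPKM in PF, 10.6 in COR, 17.3 in SAG, and 19.96 in GP. All 4 genes of this complex, with *Prim2* at 7.29 to 12.7 FPKM, were lowest in COR and not in PF.

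RPA subunits were close to equal in PF and unequal elsewhere. *Rpa3* (ENSMUSG00000012483.4, chr6:8205936-8209173, minus strand), the small subunit, was at 54.9 FPKM in GP, 51.7 in SAG, 37.9 in COR, and 25.3 in PF. *Rpa1*, the large subunit that binds DNA, was at 23.8 FPKM in PF against 25.7 in SAG, 14.8 in COR, and 17.4 in GP. *Rpa2* was at 22.7 to 36.3 FPKM. *Rpa3* was lowest in PF, whereas *Rpa1* and *Rpa2* were lowest in COR. The highest subunit was 1.07 times the lowest in PF, 2.01 times in SAG, 2.57 times in COR, and 3.16 times in GP.

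Both genes of Okazaki fragment processing differed by less than 2-fold in every comparison. *Fen1*, the flap nuclease, was at 17.9 FPKM in PF, 13.8 in COR, 11.6 in SAG, and 17.0 in GP. *Lig1*, the ligase that seals the fragments, was at 12.4 FPKM in GP, 14.8 in SAG, 7.99 in COR, and 10.6 in PF. Exons of both overlap a gene on the other strand. FEN1 works on the PCNA clamp, and the FPKM ratio of *Pcna* to *Fen1* was 1.13 in PF against 4.75 in SAG, 2.46 in COR, and 3.37 in GP.

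All 4 genes of nucleotide supply were highest in GP and lowest in PF in FPKM as deposited, but relative to *Gapdh* the lowest library was COR for *Rrm1* and SAG for *Tyms*, and with median-ratio scaling or quantile normalization *Rrm1* was highest in SAG. The summed level of this group was 56.2 FPKM in PF, 83.2 in COR, 87.2 in SAG, and 134 in GP. *Rrm2* (ENSMUSG00000020649.5, chr12:25393106-25399011, plus strand), the small subunit of ribonucleotide reductase made in S phase, was at 61.1 FPKM in GP, 31.0 in SAG, 36.1 in COR, and 16.7 in PF. Its difference in PF was -0.86 against SAG, -1.07 against COR, and -1.81 against GP. The large subunit gene *Rrm1* varied less, from 18.6 FPKM in PF to 26.8 in GP. *Tyms*, which makes thymidylate and was the lowest gene of the group by its mean, was at 7.20 FPKM in PF against 8.74 in SAG, 8.64 in COR, and 14.4 in GP. *Tk1*, the salvage kinase for thymidine, was at 13.7 FPKM in PF, 17.5 in COR, 21.0 in SAG, and 32.1 in GP, and was 1.18 lower in PF than in GP on the log2(FPKM + 1) scale. Exons of *Tyms* and *Tk1* overlap other genes.

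The summed levels of the remaining groups were lowest in PF or COR. Licensing genes summed to 198 FPKM in GP, 204 in SAG, 166 in COR, and 141 in PF. The clamp and loader summed to 124 FPKM in PF against 201 in SAG, 144 in COR, and 198 in GP. RPA summed to 72.9 FPKM in PF, 75.4 in COR, 109 in SAG, and 108 in GP. In these 3 groups PF and COR lay below SAG and GP in FPKM as deposited, as in the whole set. Okazaki processing summed to 28.5 FPKM in PF, 21.8 in COR, 26.4 in SAG, and 29.4 in GP. Helicase activation summed to 85.02 FPKM in GP, 78.3 in SAG, 64.8 in COR, and 68.9 in PF.

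Genes of mitosis, which follow S phase in the cell cycle, differed from the replication genes in how uniformly they were low in PF. All 26 listed mitosis genes were lower in PF than in each of the other libraries, with medians of -1.69 against SAG, -1.64 against COR, and -1.56 against GP, where the replication genes gave -0.45, -0.15, and -0.45. Of all genes, 49.0% were lower in PF than in SAG, 47.7% than in COR, and 48.7% than in GP. The number at least 2-fold lower in PF was 20 of 26 against SAG (18.5% of all genes) and 18 of 26 against COR (12.8%). Against GP it was 21 of 26 (14.4%). Relative to *Gapdh*, 25 of 26 were lower in PF than in SAG (31.6% of all genes), 26 than in COR (36.9%), and 23 than in GP (30.1%). *Mki67*, the gene of the proliferation antigen Ki-67, was listed at 0.384 FPKM in PF against 3.40 in SAG, 3.91 in COR, and 3.29 in GP. *Ccnb1*, the mitotic cyclin B1, was at 2.14 FPKM in PF, 21.97 in COR, 24.9 in SAG, and 15.2 in GP. Cyclin B1 drives the entry into mitosis with the kinase CDK1. *Cdk1* was at 22.6 FPKM in GP, 21.8 in SAG, 11.7 in COR, and 5.50 in PF. *Top2a*, the topoisomerase of dividing chromosomes, was at 4.07 FPKM in PF against 12.2 in SAG, 5.60 in COR, and 10.4 in GP. PF was the lowest library for all of these genes. Only 16 of the 26 mitosis genes reached 1 FPKM in PF, the shallowest library, against 26 in each other library, and their fragments were not estimated. In the comparisons without PF the mitosis medians were -0.14 for COR against SAG, 0.23 for SAG against GP, and 0.15 for COR against GP. COR was thus lower than GP for the replication genes and not for the median mitosis gene. With 1 library per tissue, the difference between both gene sets could not be tested.

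**Figure D4:**
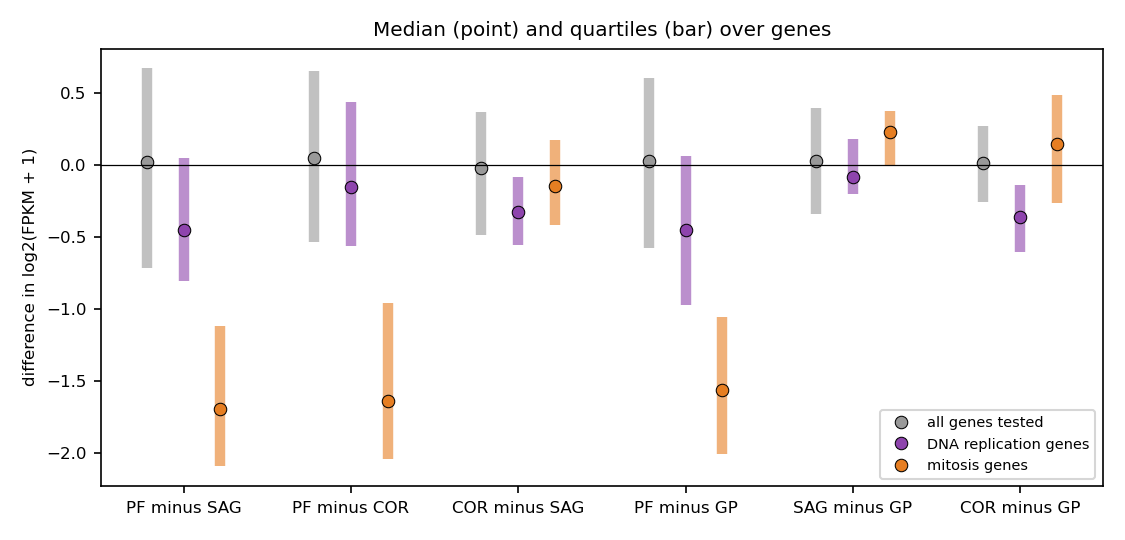
Median (points) and quartiles over genes (bars) of the difference in log2(FPKM + 1) for each pair of libraries, for all genes tested, the DNA replication genes, and 26 mitosis genes. The mitosis medians lie at -1.69, -1.64, and -1.56 in the comparisons of PF and between -0.14 and 0.23 in the others, and the replication medians lie between -0.45 and -0.084. Relative to *Gapdh*, which is not drawn, the replication medians of PF against SAG, COR, and GP are 0.044, 0.089, and 0.032. Those of all genes are then 0.51, 0.29, and 0.46, and those of mitosis -1.34, -1.48, and -1.25.

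Other replication genes outside the set were less shifted. Of 31 tested between PF and SAG, 2 were at least 2-fold lower (18.5% of all genes) and 2 higher (16.2%) in PF, with a median of -0.17. Between PF and COR the median was -0.067 and 0 of 29 passed 2-fold (12.8% of all genes lower, 16.6% higher). *Dscc1*, a subunit of an alternative clamp loader, was 3-fold lower in PF than in SAG, at 0.631 FPKM in PF, 2.22 in COR, 6.30 in SAG, and 4.48 in GP. Genes listed for S phase chromatin were all lower in PF than in SAG (10 of 10, median -0.88, with 49.0% of all genes lower). Against COR, 8 of 10 were lower (47.7% of all genes), or 5 of 10 relative to *Gapdh* (36.9%). The histone chaperone gene *Asf1b* was listed at 18.7 FPKM in GP, 12.2 in SAG, 11.1 in COR, and 0.448 in PF. *Chaf1a*, which encodes the large subunit of the chromatin assembly factor CAF-1, was listed at 0.155 FPKM in PF against 4.79 in SAG, 5.58 in COR, and 5.97 in GP. PF stood alone at the low end for both, with differences against SAG of -3.19 for *Asf1b* and -2.33 for *Chaf1a*. Both were below 1 FPKM in PF, the shallowest library, and their fragments were not estimated. *Asf1b* was among the 65 genes below 1 FPKM in PF but at 5 or more in the other 3 libraries.

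E2F and G1/S genes showed no common direction. Of 13 tested, 6 were lower and 7 higher in PF than in SAG (median 0.085, with 49.0% of all genes lower). Against COR, 7 were lower and 6 higher (median -0.051, with 47.7% of all genes lower). *Ccna2*, cyclin A2 of S and G2 phases, was 3-fold lower in PF than in both sutures, at 7.54 FPKM in PF, 33.0 in COR, 27.9 in SAG, and 24.6 in GP. *Ccne1*, cyclin E1 of the entry to S phase, was at 18.2 FPKM in GP, 6.31 in SAG, 9.42 in COR, and 18.3 in PF. *E2f1*, an activator of S phase genes, was at 14.0 FPKM in PF against 13.2 in SAG, 12.0 in COR, and 16.7 in GP. *Ccne1* and *E2f1* were chosen after their values were seen. The FPKM ratio of *Ccna2* to *Ccne1* was 0.411 in PF, 3.50 in COR, 4.42 in SAG, and 1.35 in GP.

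GC content moved with the difference between PF and SAG. Members of the set below their median GC content of 49.0% had a median of -0.51, with 17 of 20 lower in PF, and those at or above it had a median of -0.21, with 12 of 19 lower. Over the 39 genes, Pearson's r of GC content with the difference was 0.32 and Spearman's rho was 0.25, and over all 12090 genes with a coding transcript r was 0.22 and rho 0.28. These describe genes of the same pair of libraries, which are not independent replicates. After a loess correction for GC content, the median of the set was -0.31 between PF and SAG. *Gapdh*, a glycolytic gene used as reference, was at 389 FPKM in GP, 407 in SAG, 335 in COR, and 281 in PF, and relative to it the median of the set was 0.044 between PF and SAG, where that of all genes was 0.51.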

How the data were processed

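Bulk RNA-seq of sorted CD51+;CD200+ cells gave 1 library per tissue. Per the submitters' processing notes, the authors aligned reads to mm9 with STAR 2.5.1b and ran Cuffdiff of Cufflinks 2.2.1. The deposited unit is FPKM, with 1 value per gene symbol. How Cuffdiff scaled the libraries is not given in the sources used here, and strand was not stated, so overlapping genes may share reads.

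The 40 genes and all lists were chosen with earlier results of these data known. FPKM ratios between pairs of genes were not planned. Each sets a gene lowest in PF over a gene highest in PF, so a low ratio in PF follows from the choice of the pair. Every gene is accounted for. Values in all libraries are given for genes 2-fold apart between PF and SAG or COR, for the highest and lowest gene of each role, and for *Mcm2* to *Mcm7*. Of the lists of other replication, S phase chromatin, and E2F and G1/S genes, those 3-fold apart with an FPKM of 5 or more are given, and of the mitosis list 4 genes.

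A pseudocount of 1 was used, and a gene entered a comparison if it reached an FPKM of 1 in either library. No test was possible. FPKM times transcript length rises in steps of 1 fragment, from which fragments were estimated. Gene positions are from GENCODE on mm9 and promoters from RefSeq on GRCm38.p6. The GC correction used loess with a span of 0.3 on genes with a mean FPKM of 5 or more. The log2 differences and the filter were tested on simulated data with known folds. The GC correction, the scalings, the fragment estimates, and the motif search were not tested in this way. Python 3.11.15, numpy 2.4.6, pandas 2.3.3, statsmodels 0.14.6, and matplotlib 3.10.9 were used.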

Additional observations from a re-analysis of the deposited data

How the results depend on the processing

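No paired analysis was possible because there was 1 library per tissue. Scaling to a common median ratio, no filter, and a pseudocount of 0.1 kept the medians within 0.1 and the counts within 1.5 times, except that with the pseudocount of 0.1 the genes 2-fold higher in PF than in COR were 3. They were 4 with no pseudocount and 0 after quantile normalization. Relative to *Gapdh*, the medians became 0.044 for PF against SAG, 0.089 for PF against COR, 0.032 for PF against GP, -0.055 for COR against SAG, and -0.17 for COR against GP, while all genes moved to 0.51, 0.29, 0.46, 0.23, and 0.21. The set minus all genes was thus -0.47 for PF against SAG, both relative to *Gapdh* and as reported. Genes 2-fold lower and higher in PF were then 5 and 6 against SAG and 6 and 3 against GP, 4 were higher than in COR, and 11 were highest in GP. The shares of all genes for these counts were not taken relative to *Gapdh*. The log2 ratios of summed levels of PF over SAG became -0.00096 for licensing, 0.35 for helicase activation, -0.17 for the clamp and loader, 1.16 for polymerases, -0.054 for RPA, 0.64 for Okazaki processing, and -0.10 for nucleotide supply. For PF against COR, the median was 0.061 with an FPKM of 1 or more in both libraries, 0.026 after GC correction, and 0.068 both without genes whose exons overlap another gene and without genes under 50 fragments. The latter 2 settings, like no pseudocount, were chosen after seeing the data. With an FPKM of 1 or more in both libraries, 2 genes were 3-fold lower in PF than in SAG, 1 than in COR, and 2 than in GP, and with an FPKM of 5 or more in either, 1 than in COR. Without genes under 50 fragments (*Cdc6*, *Gins1*, *Gmnn*, *Pole*), the median for PF against SAG was -0.33, 3 genes were 2-fold lower than in COR, and those 3-fold lower were 1 against SAG, 0 against COR, and 1 against GP. GC correction gave -0.31 for PF against SAG, and without overlapping genes 11 were highest in GP. The causes of these changes were not tested, apart from the smaller number of genes. Of 28 differences of single genes past 2-fold in PF, 10 fell below 2-fold relative to *Gapdh*, 4 after GC correction, and 2 after quantile normalization, and 0 changed sign in any setting. With 1 library per tissue, and PF the shallowest, low values in PF are the least precise.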

Other observations

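Genes that repair or guard stalled forks, listed after results of these data had been seen, were also described. Of 21 tested between PF and SAG, 15 were lower in PF (49.0% of all genes), with a median of -0.79. At least 2-fold lower were 7 (18.5% of all genes), and 1 was 2-fold higher (16.2%). Against COR, 9 of 17 were lower (47.7% of all genes) and 8 higher, with a median of -0.34. In that comparison 5 were at least 2-fold lower (12.8% of all genes) and 2 were 2-fold higher (16.6%). *Rad17*, which loads the checkpoint clamp, was listed at 0.188 FPKM in PF, 7.55 in COR, 10.4 in SAG, and 7.55 in GP. *Hus1*, a subunit of that clamp, was listed at 0.0363 FPKM in PF and from 2.28 to 2.97 in the other libraries. The other clamp subunits differed by less than 2-fold between the libraries, with *Rad1* at 15.8 FPKM in GP, 15.0 in SAG, 14.1 in COR, and 10.97 in PF. *Rad9a* was at 21.97 FPKM in PF against 17.5 in SAG, 21.76 in COR, and 18.7 in GP. *Fancb*, of the Fanconi anaemia core complex, was highest in PF, at 6.44 FPKM against 1.92 to 2.45 elsewhere. These genes were named after their values were seen. *Rad17* and *Hus1* were below 1 FPKM in PF, the shallowest library, and their fragments were not estimated.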
